A study of Sus scrofa with 6 samples.

Results

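Sarcomeric myosin heavy chains were followed in the longissimus muscle of pigs, the long muscle of the back. The deposited table of 7661 gene records was searched for the names MYH1, MYH2, MYH3, MYH4, MYH7, MYH7B and MYH8. It held 5 such records, MYH7, MYH7B, MYH1, MYH4 and MYH3, and no record carried either of the 2 remaining names, MYH2 and MYH8. RNA sequencing libraries came from 3 pigs with high and 3 pigs with low intramuscular fat, the fat within and between the muscle's fibre bundles, and are called high 1 to 3 and low 1 to 3. The labels give no breed, sex, age or diet, and name no treatment or allele. Levels are the deposited CPM, a record's read count scaled to a library of 1000000 reads, and fold changes run from low to high. Library totals, worked out from the deposited counts and CPM, were 25371989 to 34813172 reads. Mitochondrial genes took 8.06% to 12.7% of them in the low and 6.99% to 11.5% in the high group.

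Myosin heavy chain is the motor protein of the thick filament, and the isoform a fibre carries largely sets how fast it contracts. MYH7 encodes the slow isoform, which is shared with the heart, and MYH7B is a related gene whose record is described as cardiac. MYH2, MYH1 and MYH4 encode the fast isoforms of adult muscle, from the more oxidative to the more glycolytic fibres. MYH3 and MYH8 encode the embryonic and the perinatal chain. The fast and developmental genes lie side by side as a cluster of very similar sequence, and longissimus is known as a mainly fast muscle.

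The names of the chromosome 12 records were at odds with their other identifiers. The record named MYH4 (ENSSSCG00000018003, chromosome 12, 58205953 to 58230234) is described in the table as Myosin-2, and its Entrez number belongs to MYH2 in RefSeq. The record named MYH1 (ENSSSCG00000018005, 57967161 to 57984754) is described as Myosin-1 but is called MYH8 in a later Ensembl name table. The record named MYH3 (ENSSSCG00000018007, 58110959 to 58132945) is MYH3 in the Ensembl table and an unnamed locus in RefSeq. The chromosome 7 record named MYH7 (ENSSSCG00000002029, 81066278 to 81088337) is described as Myosin-7 and is MYH7 in RefSeq, whereas the Ensembl table calls it MYH6. The names agreed in all sources only for MYH7B (ENSSSCG00000007288, chromosome 17, 43559553 to 43582499). The records are therefore called by the table's name below. These sources do not settle which isoform, adult fast or developmental, each chromosome 12 record stands for. No source names the genome build behind these positions.

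The 5 records together took 6.12%, 6.75% and 5.59% of the reads of low libraries 1 to 3 and 6.91%, 7.04% and 6.46% of those of high libraries 1 to 3. MYH1 held the most reads of any record in the table by its mean count. MYH4 ranked 6, MYH3 ranked 11, MYH7 ranked 27 and MYH7B ranked 1160. Transcript lengths were not used here, so these are shares of reads and not molecules per length.

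MYH1 made up about as much of the summed CPM of the 5 records as the others combined. Its share was 52.5%, 45.9% and 53.0% in the low libraries and 47.8%, 51.2% and 51.1% in the high libraries. MYH4 contributed 24.9%, 23.1% and 21.8% in the low and 25.8%, 23.9% and 22.3% in the high libraries. Both ranges overlapped between the groups. MYH3 stood at 17.1%, 15.9% and 12.7% in the low and 19.3%, 16.7% and 15.9% in the high libraries. As given below, neighbouring records outside the myosin family had counts of up to 83.7% to 86.6% of the MYH3 count per library. The MYH3 shares are not corrected for that. The slow chain MYH7 had the widest range in percentage points, at 5.53%, 14.9% and 12.5% in the low and 7.01%, 8.08% and 10.5% in the high libraries. The lowest and the highest MYH7 share were thus both found in the low group, with all 3 high libraries between them. MYH7B stayed between 0.0618% (low 1) and 0.246% (low 2), a wider range than that of MYH7 relative to its size. The levels of the shares depend on which records are summed. In high 1 the MYH7 share of 7.01% was 4.54% with both neighbouring records without a symbol added, and 12.8% of MYH7 and MYH1 alone.

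**Figure D1:**
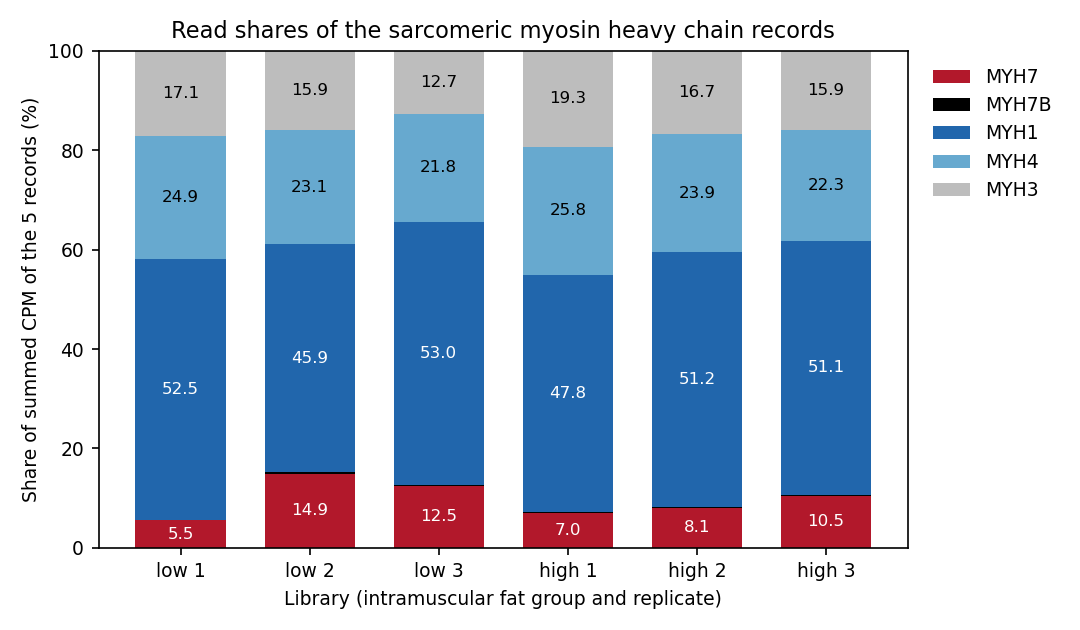
Stacked bars give the share (%) of each of the 5 records in their summed CPM, 1 bar per library, with the 3 low libraries on the left. Neighbours outside the myosin family had up to 86.6% of the MYH3 count, and no share is corrected for that. The MYH7 share spans 5.53% to 14.9% in the low group and 7.01% to 10.5% in the high group; MYH7B, at 0.246% or less, is a thin line.

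No share differed between the groups beyond the spread of the libraries. MYH7 averaged 11.0% ± 4.88 in the low and 8.53% ± 1.78 in the high group (SD, n = 3 each), a difference of -2.45 percentage points (two-sided exact permutation p = 0.5). The differences were 2.10 points for MYH3 (exact p = 0.4), 0.745 for MYH4 (exact p = 0.6), -0.392 for MYH1 (exact p = 1) and 0.00228 for MYH7B (exact p = 1). The ratio of MYH7 to MYH4 reads was 0.222, 0.648 and 0.573 in the low and 0.272, 0.338 and 0.471 in the high libraries. On the log2 scale that ratio differed by -0.31 (exact p = 0.7). All 6 of these comparisons had an adjusted p of 1, and 3 libraries against 3 cannot give an exact p below 0.1. Counting error was small beside this spread, since the widest of the 30 Wilson 95% intervals of the shares covered 0.151 percentage points. Without low 1 the MYH7 difference was -5.18 points, and without low 2 it was -0.474 points.

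MYH7, the slow chain, was at 3381, 10089.9 and 6968 CPM in low libraries 1 to 3 and at 4842, 5694 and 6779 CPM in high libraries 1 to 3. Low 2 and low 3 were the highest libraries, low 1 was the lowest, and the groups overlapped. The log2 fold change from low to high was -0.21 with an SE of 0.36 (edgeR adjusted p = 0.768, quasi-likelihood test), and -0.10 in limma-voom. Without low 2 the value turned to 0.11 (adjusted p = 0.899) and without low 1 it was -0.52 (adjusted p = 0.251). The low group varied by a CV of 49.3% and the high group by 16.8%. The SD of log2 CPM within groups was 0.57, larger than in 95.1% of all records, whose median was 0.20.

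MYH7B, the gene related to MYH7, had 37.8, 166 and 71.3 CPM in the low and 95.6, 114 and 92.5 CPM in the high libraries. These are RNA levels, and protein was not measured here. It shared with MYH7 the lowest value in low 1 and the highest in low 2, but in low 3 it lay below all high libraries. Its log2 fold change was 0.18 (SE 0.44, edgeR adjusted p = 0.846), or -0.18 without low 1 and 0.83 without low 2 (adjusted p = 0.732 and 0.308), and 0.40 in limma-voom. The CV was 72.7% in the low and 11.3% in the high group, so that the 4.41-fold range over the 6 libraries was a range within the low group.

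MYH1 varied least. It was at 32078, 30965 and 29589 CPM in the low and at 33013, 36049.9 and 33064 CPM in the high libraries. Every high library lay above every low library, by a small margin. This was the 1 record of 5 whose groups did not overlap in that direction, as was the case for 10.4% of all records (24.2% in either direction, 13.7% lower in high). Its log2 fold change was 0.16 (SE 0.22, adjusted p = 0.717, edgeR). The SD of log2 CPM within groups was 0.06, and 1.92% of records had a smaller one.

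MYH4 stood at 15208, 15574 and 12164 CPM in the low and 17806, 16831 and 14404 CPM in the high libraries. High 3 lay below low 1 and low 2, so the groups overlapped. The log2 fold change was 0.22 (SE 0.21, edgeR adjusted p = 0.598). MYH3 had 10451, 10728 and 7078 CPM in the low and 13355, 11759 and 10297 CPM in the high libraries. It had its lowest value in low 3 and its highest in high 1, as MYH4 did, and a log2 fold change of 0.36 (SE 0.23, edgeR adjusted p = 0.419).

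None of the 5 records passed the adjusted threshold of 0.05 in edgeR's quasi-likelihood test, against 0.144% of all 7661 records (0.131% higher and 0.0131% lower in high). At an unadjusted p under 0.05 the count was 0 of 5 as well, where 18.7% of all records qualified (10.3% higher and 8.41% lower in high). DESeq2 called 0 of the 5 and 6.77% of all records, and limma-voom called 0 of the 5. The authors' deposited table gave false discovery rates between 0.511 (MYH3) and 0.877 (MYH7B) for them. These values do not show that the isoforms are equal between groups.

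**Figure D2:**
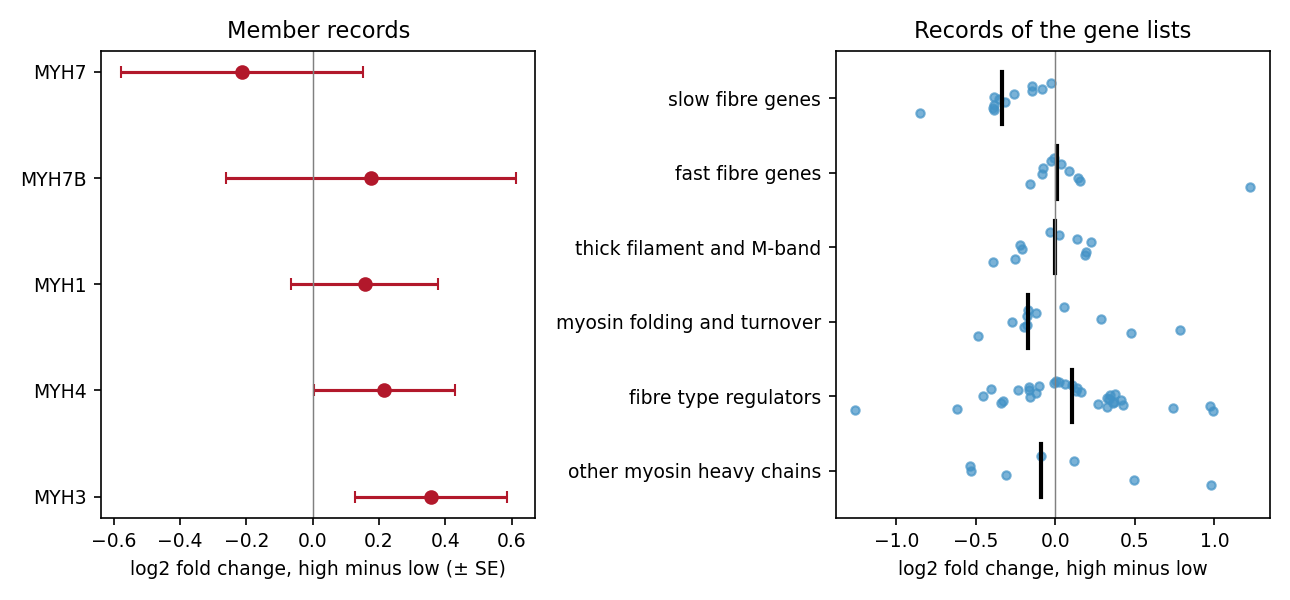
Left, log2 fold change from low to high with its standard error for the 5 records (n = 3 libraries per group), from -0.21 for MYH7 to 0.36 for MYH3. Right, log2 fold changes of the single records of the 6 gene lists (points) with the list median (black bar), which lies at -0.33 for slow fibre genes and 0.01 for fast fibre genes.

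The chromosome 12 myosin records lay among neighbours of other families with counts of the same order. SCO1, which encodes a copper chaperone of cytochrome oxidase, C17ORF48 (ADPRM in RefSeq) and TMEM220 lie between the MYH1 and MYH3 records in the table's coordinates and belong to no myosin family. SCO1 was nevertheless at 8840, 9199 and 5956 CPM in the low and 11466, 9830 and 8905 CPM in the high libraries. The counts of these 3 neighbours differed by between 0.0941% and 0.270% within a library. Among 7174 pairs of adjacent records in the whole table, 16 stayed within 1% of each other in all 6 libraries, and 2 of the 16 pairs were those of these neighbours. The spans of C17ORF48 and TMEM220 overlap, whereas those of SCO1 and C17ORF48 do not. The largest neighbour count equalled 83.7% to 86.6% of the MYH3 count, 49.0% to 64.5% of the MYH4 count and 20.2% to 34.8% of the MYH1 count. Whether the same reads were counted on several of these records was not tested.

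The MYH3 level above its neighbours was much smaller than its listed level. With the largest neighbour count taken off, MYH3 had 1587, 1513 and 1113 CPM in the low and 1874, 1919.9 and 1383 CPM in the high libraries. The log2 fold change was then 0.32 for MYH3 (edgeR adjusted p = 0.397), that of MYH1 was 0.08 in place of 0.16 (adjusted p = 0.871) and that of MYH4 was 0.01 in place of 0.22 (adjusted p = 0.986). This subtraction was chosen after the counts had been seen.

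**Figure D3:**
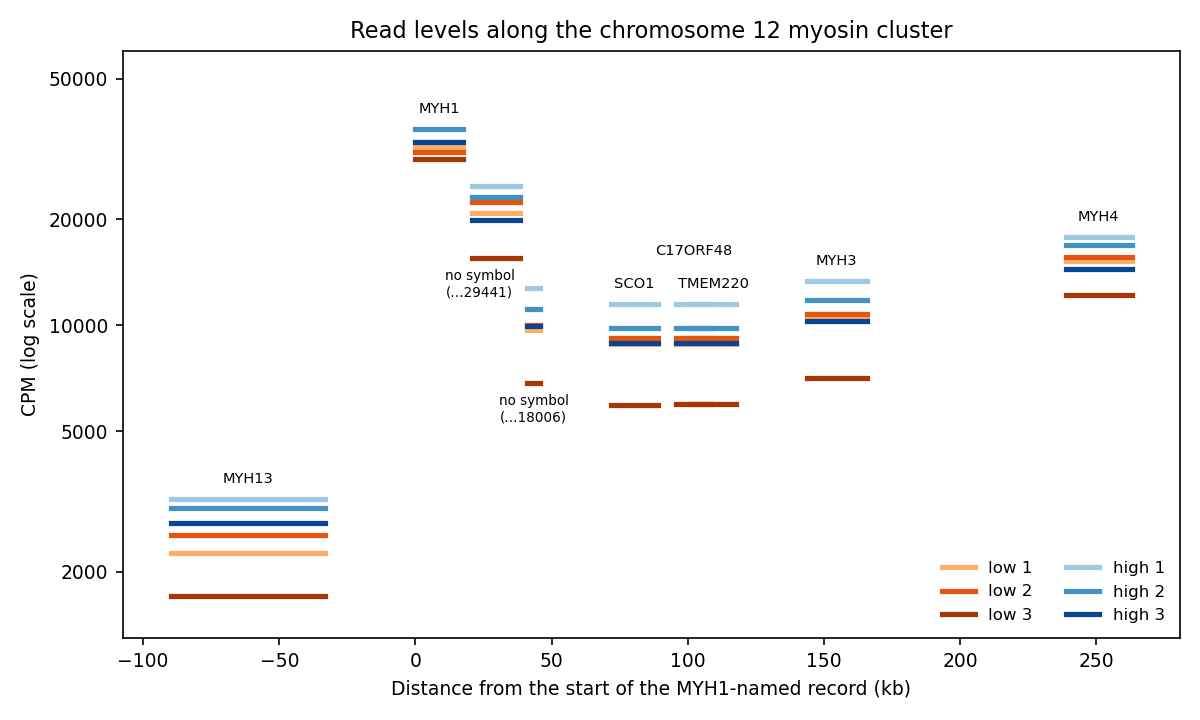
Horizontal bars mark the CPM (log scale) of each of the 9 records from MYH13 to MYH4 on chromosome 12 in the 6 libraries, placed by distance in kb from the start of the MYH1 record; the shortest record is drawn wider than its span. SCO1, C17ORF48 and TMEM220 lie at nearly the same level in each library, and low 3 is the lowest library on every one of the 9 records.

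Further records of the cluster had similar profiles. ENSSSCG00000029441, without a symbol, lies next to MYH1 and had 19535 ± 3567 CPM in the low and 22622 ± 2518 CPM in the high group (SD, n = 3). ENSSSCG00000018006, a record of 401 bases described as a fast type myosin heavy chain, had 8851 ± 1737 and 11265 ± 1401 CPM. Both were chosen for mention by position and not by the rule. Their log2 fold changes were 0.24 and 0.38 (edgeR adjusted p = 0.591 and 0.381). C17ORF48, outside the myosin family, had 8015 ± 1784 and 10078 ± 1300 CPM, not far below ENSSSCG00000018006. Whether that record shares reads with such neighbours was not tested. MYH13, the chain known from eye muscles, had 2264, 2549 and 1706 CPM in the low and 3214, 3039 and 2751 CPM in the high libraries. Its groups did not overlap, as was the case for 24.2% of all records (10.4% higher in high). The log2 fold change was 0.50 (SE 0.18, edgeR adjusted p = 0.216). The order along chromosome 12 differed between the table and RefSeq. In RefSeq's Sscrofa11.1, MYH4, MYH1 and MYH2 follow each other and precede the loci with the Entrez numbers of the MYH3 and SCO1 records, whereas in the table SCO1 lies between the MYH1 and MYH4 records.

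The microRNA record inside MYH7 moved much as its host did. MIR208B (chromosome 7, 81071323 to 81071402) encodes a microRNA of slow and cardiac muscle, lies on the same strand as MYH7 and was chosen for its position. It had 78.7, 268 and 275 CPM in the low and 116, 134 and 229 CPM in the high libraries, with a log2 fold change of -0.37 (SE 0.47, edgeR adjusted p = 0.691). Low 1 was again the lowest library. Reads of the MYH7 transcript over this stretch cannot be told apart from the microRNA.

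The genes whose profile over the 6 libraries was nearest to that of MYH7 included 3 of slow fibres. Nearness was the root-mean-square difference of log2 CPM after centring each record on its own mean, whose median over all records with a symbol was 0.51 for MYH7. VPS37B, an endosomal sorting subunit, came first at 0.14, followed by WDR91 at 0.16. TNNI1, listed as TNI-S4, is the inhibitory troponin of slow fibres and came next at 0.17. MYOZ2, described as calsarcin 1, a Z-disc protein that binds calcineurin, was at 0.18, and TNNT1, the slow troponin T, was also at 0.18. TNNI1 was at 425, 1035 and 834 CPM in the low and 509, 503 and 704 CPM in the high libraries, again with low 2 and low 3 on top.

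The other members had different nearest genes. For MYH7B these were MPEG1 (0.06), the hexokinase HK2 (0.20), phospholamban PLN, the inhibitor of the calcium pump of slow and cardiac muscle (0.23), the repressor BCL6 (0.27) and TMEM204 (0.29). For MYH1 they were IPO7, SNX2, THAP2, SEC63 and TAX1BP1, at 0.04 or 0.05, and the median over all records was 0.24. For MYH4 they included INTS3, TRAF6, CLTC and CAMTA2, between 0.04 and 0.06. For MYH3 the 3 nearest were C17ORF48, TMEM220 and SCO1, all at 0.02, ahead of the kinesin KIF5B and PHGK. Records that vary little are near to many others by this measure.

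Of 14 listed symbols of slow fibre genes 12 had a record, and the list leaves out the myosin heavy chains. Of these records 9 lay nearer to the MYH7 profile than the median record, whereas CSRP3 (0.79), LMCD1 (0.78) and ANKRD2 (0.55) lay farther from it than that median of 0.51. The median centred log2 CPM of the 12 was -0.52, 0.47 and 0.48 in the low and -0.12, -0.28 and -0.04 in the high libraries. MYH7 itself stood at -0.83, 0.66 and 0.32 in the low and -0.23, -0.11 and 0.20 in the high libraries. The low 1 library held the lowest value for 7 of the 12 records (58.3%), as it did for 12.2% of all records. Low 2 held the highest value for 9 of the 12 (75.0%), against 31.5% of all records.

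**Figure D4:**
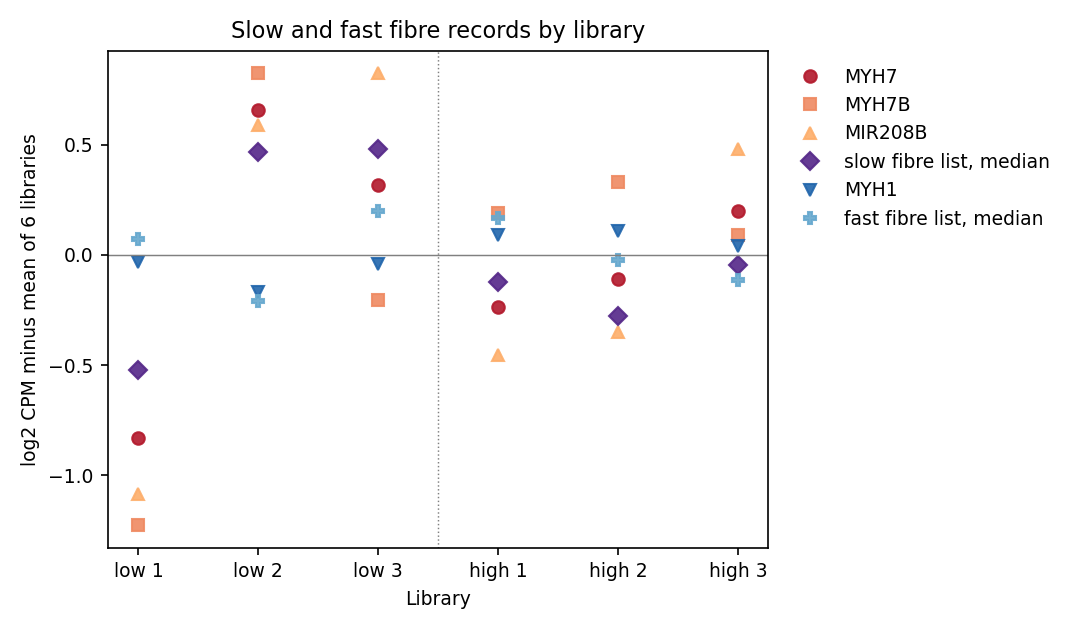
Points give log2 CPM minus the mean over the 6 libraries for MYH7, MYH7B, MIR208B and MYH1, and the median of the same quantity over 12 slow and 10 fast fibre records. MYH7, MYH7B, MIR208B and the slow list have their lowest point in low 1, whereas MYH1 and the fast list lie near 0 there (-0.03 and 0.07).

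All 12 slow fibre records had a negative log2 fold change, with a median of -0.33, where 4198 of the 7661 records were negative and the median was -0.04. None passed the threshold in edgeR, DESeq2 or limma-voom, and 0 had an unadjusted edgeR p under 0.05. CSRP3, a stress sensor of the Z-disc, had 326, 477 and 415 CPM in the low and 360.0, 169 and 128 CPM in the high libraries (log2 fold change -0.85, SE 0.38, edgeR adjusted p = 0.287). TNNT1 had -0.39 (SE 0.27), TNNI1 -0.40 (SE 0.31) and TNNC1, the troponin C of slow and cardiac muscle, -0.39 (SE 0.32). Without low 1 the list median was -0.57, and without low 2 it was -0.18.

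Fast fibre genes were divided, with 5 of 10 records above and 5 below 0 and a median of 0.01. None passed in edgeR, DESeq2 or limma-voom, and 0 had an unadjusted edgeR p under 0.05. PVALB, the calcium buffer parvalbumin, had the largest value (1.22, SE 0.71), which came from high 1 with 70.0 CPM against 9.97 to 15.7 CPM in the 5 other libraries. PVALB was above 10 CPM in 3 low and 2 high libraries. TNNC2, the fast troponin C, had -0.16 (SE 0.22), the calcium pump ATP2A1 0.15 (SE 0.21) and the tropomyosin TPM1 0.14 (SE 0.25).

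Partners of myosin in the thick filament and M-band were likewise divided (5 of 10 records higher, median -0.01), and none passed in edgeR, DESeq2 or limma-voom, or had an unadjusted edgeR p under 0.05. The M-band proteins MYOM3 and MYOM1 had -0.39 (SE 0.25) and 0.18 (SE 0.14). The light chain records MYL6 (ENSSSCG00000025467) and MYL12B had -0.25 (SE 0.16) and 0.19 (SE 0.15). The summed level of the list lay between 4189 and 4303 CPM in the low and between 4133 and 4245 CPM in the high libraries.

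Genes of myosin folding and turnover had 7 of 11 records below 0 (median -0.17), and none passed in edgeR or limma-voom. UNC45A, a myosin chaperone of many tissues, had 15.7, 18.8 and 15.9 CPM in the low and 10.9, 11.9 and 12.6 CPM in the high libraries, without overlap. Its log2 fold change was -0.49 (SE 0.13, edgeR adjusted p = 0.147), and it was the 1 record of the list with an unadjusted p under 0.05 and the 1 that DESeq2 called (adjusted p = 0.0332). Over all records 24.2% did not overlap (13.7% lower in high), 18.7% had an unadjusted p under 0.05 and DESeq2 called 6.77%. UNC45B, the chaperone of striated muscle myosin, had -0.20 (SE 0.15). SMYD1, a muscle methyltransferase that takes part in thick filament assembly, had 0.48 (SE 0.21, edgeR adjusted p = 0.281). FBXO32, a ubiquitin ligase of muscle wasting, had 0.78 (SE 0.52), with 36.6 CPM in low 3 against 172 to 302 CPM elsewhere.

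None of 33 records of fibre type regulators passed in edgeR or limma-voom. There were 20 above and 13 below 0, with a median of 0.10, and 6 had an unadjusted p under 0.05 (18.7% of all records did). MEF2C, a transcription factor of muscle genes, was at 99.6, 84.2 and 105 CPM in the low and 184, 202 and 186 CPM in the high libraries. The high libraries lay well above the low ones, with a log2 fold change of 0.99 (SE 0.15, edgeR adjusted p = 0.0718). SOX6, a repressor of slow fibre genes, had 7.01, 9.34 and 6.54 CPM in the low and 10.2, 12.5 and 14.9 CPM in the high libraries (0.74, SE 0.19, edgeR adjusted p = 0.136). The deposited table holds records above 10 CPM in at least 3 libraries, so SOX6 was in it through the high group alone, and its difference is given as a description. MYOG, the myogenic factor myogenin, was at 36.9, 38.7 and 34.8 CPM in the low and 12.7, 23.3 and 9.97 CPM in the high libraries (-1.26, SE 0.28, edgeR adjusted p = 0.111). ESRRA, a nuclear receptor of oxidative metabolism, had 154, 158 and 143 CPM in the low and 109, 88.2 and 93.8 CPM in the high libraries (-0.62, SE 0.14, edgeR adjusted p = 0.114). The groups did not overlap in these 4 and in PPP3CA, a calcineurin subunit named here after its values were seen. That made 5 of 33 records (15.2%), against 24.2% of all records. DESeq2 called MEF2C, SOX6, MYOG and ESRRA, with adjusted p between 4.73e-06 and 0.0107, and it called 6.77% of all records. MYOG, above 10 CPM in 3 low and 2 high libraries, was in the table through the low group. ESRRG, named here for this filter alone, was likewise above 10 CPM in 3 low and 2 high libraries, with a log2 fold change of -0.45. The counts of this list include SOX6, MYOG and ESRRG, so the counts too are given as a description.

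The non-sarcomeric and remaining heavy chains had 3 of 7 records above 0 (median -0.09), and none passed in edgeR or limma-voom, while 3 had an unadjusted p under 0.05 (18.7% of all records did). MYH11, the chain of smooth muscle, was at 13.6, 8.99 and 8.33 CPM in the low and 17.1, 19.0 and 24.0 CPM in the high libraries. It had a log2 fold change of 0.98 (SE 0.22, edgeR adjusted p = 0.114). It was the 1 record of the list called by DESeq2 (DESeq2 adjusted p = 0.00370), which called 6.77% of all records. MYH11 was above 10 CPM in 1 low and 3 high libraries, so it was in the table through the high group. Neither its call nor the count of 3 therefore supports a difference in this list. MYO18B, an unconventional myosin of the sarcomere, had -0.31 (SE 0.13), and its widely expressed relative MYO18A had -0.53 (SE 0.27). MYH11 also belongs to the smooth muscle and pericyte markers, whose 7 records summed to between 401 and 559 CPM in the low and between 549.5 and 650.3 CPM in the high libraries.

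Muscle fibre markers were high in all libraries, as in the labelled tissue. The 6 matched of 8 (among them ACTA1, CKM and DES) summed to between 54115 and 59523 CPM in the low and between 53354 and 58993 CPM in the high libraries, with a median log2 fold change of -0.01. The 9 fibroblast records stand for 7 symbols, as COL1A1 and COL1A2 have 2 each. All 9 had a log2 fold change above 0, as did 3463 of the 7661 records. PDGFRA, above 10 CPM in 1 low and 3 high libraries, was in the table through the high group. The 9 summed to 1465 to 2660 CPM in the low and 3170 to 4348 CPM in the high group. The 6 adipocyte records summed to 162 to 206 and 189 to 371 CPM. Of the adipocyte records 4 had a log2 fold change above 0, and CFD (-0.24) and the lipase listed as ATGL (-0.02) had one below 0. PLIN1, the lipid droplet coat protein perilipin, was the 1 list record past the threshold, with 8.13, 5.10 and 5.81 CPM in the low and 27.2, 39.9 and 60.3 CPM in the high libraries (log2 fold change 2.75, SE 0.32, edgeR adjusted p = 0.0404). It was in the table through the high group alone, as were CIDEA and CIDE-C, so neither its call nor the count of 4 supports a difference in this list. The 7 endothelial records summed to 294 to 452 and 349 to 445 CPM and the 4 satellite cell records to 351 to 509 and 628 to 704 CPM. Most of each satellite cell sum was MYF5, with 275, 417 and 276 CPM in the low and 614, 583 and 534 CPM in the high libraries. NCAM1, CDH15 and VCAM1 had log2 fold changes of 0.30, 0.15 and -0.05. The 3 macrophage records summed to 37.0 to 88.3 and 65.2 to 106 CPM, and the 2 erythrocyte records to 107 to 245 and 107 to 159 CPM. Whether a marker was at 0 cannot be read from a table that holds only records above 10 CPM in 3 or more libraries. The part of these cells in the levels of the myosin records was not tested, and in whole muscle fewer fibres of a type and less RNA per fibre cannot be told apart.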

How the data were processed

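RNA sequencing of longissimus muscle gave 6 libraries, 3 per group. Their totals of 25371989 to 34813172 reads are the CPM denominators, worked out here from counts and CPM. The listed records held 96.55% to 97.18% of these totals. TopHat2 2.0.4, BWA 0.6.2, Trimmomatic 0.22 and FastQC 0.10.1 are named without roles, per the submitters' processing notes. No source used here gives the read counter, its strand and multi-mapping settings, the genome build or the annotation. The authors deposited raw counts per record and CPM (count per 1000000 reads of the library total); each record had over 10 CPM in at least 3 libraries, so genes below that were not analysed here. The deposited log2 fold changes (low over high, turned around here), log2 mean CPM, p-values and false discovery rates are described per the file headers.

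Members and gene lists were chosen with earlier results of these data known. Counts were tested with edgeR 4.0.16 in R 4.3.3, by the quasi-likelihood F-test of version 4 with TMM. Library totals were worked out from the deposited counts and CPM, and filterByExpr kept all 7661 records. Benjamini-Hochberg adjustment ran over all records, with a threshold of 0.05. DESeq2 1.42.0 and limma 3.58.1 (voom) were alternatives. SEs are the absolute log2 fold change over the square root of F. Shares used deposited CPM; centred log2 levels used TMM-normalised CPM with a prior count of 2. Shares and ratios were compared by two-sided exact permutation tests. Intervals cover counting error only. The design names 3 pigs per group and no more on their sampling, so p-values measure the spread between these libraries. List symbols without a record of that name were matched through an Ensembl name table or RefSeq (Sscrofa11.1) by Entrez number; unmatched symbols are not shown to be low. Named were all members, list records past the threshold, the 4 records per list with the smallest p (cell type lists apart) and the 5 nearest records with a symbol per member, of which 1 is not reported here. Alternatives were other scalings, filters and tests, each library left out, and a replicate block; those on the cluster reads, the mitochondrial genes and the older edgeR method were added after seeing the data.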

Additional observations from a re-analysis of the deposited data

How the results depend on the processing

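The sign of the fold change was kept by MYH1, MYH4 and MYH3 under all alternatives run, and no alternative took a member past the threshold, 0.1 included. With the neighbour count subtracted, MYH1 was at 0.08 (SE 0.23) and MYH4 at 0.01 (SE 0.19), too near 0 for the sign of MYH4 to be read. With each library left out, values ran from -0.52 to 0.11 for MYH7, -0.18 to 0.83 for MYH7B, 0.11 to 0.20 for MYH1, 0.13 to 0.30 for MYH4 and 0.23 to 0.45 for MYH3. The signs turned for MYH7 without low 2 (0.11) and for MYH7B without low 1 (-0.18), by the loss of 1 library; the MYH7 share difference ran from -5.18 to -0.474 points and the log2 ratio of MYH7 to MYH4 from -0.79 to -0.02. The count of all records past the threshold (11) became 518 in DESeq2, 2 with the replicate block, 82 at a threshold of 0.1 and 1 to 30 with each library left out; the cause was not tested. DESeq2 called 1 folding and turnover record, 4 fibre type regulators and 1 other heavy chain, against 0 in edgeR, and 6.77% of all records. Of these, SOX6 and MYH11 were in the table through the high group and MYOG through the low group, so their calls are given as a description. The median of the folding list moved to 0.03 without low 3.

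Same-numbered libraries correlated at 0.118, 0.0312 and -0.0815 in their deviations from the group means across records, so the numbers were not taken to pair the animals. With the replicate block MYH7 was at -0.10, MYH7B at 0.40, MYH1 at 0.16, MYH4 at 0.21 and MYH3 at 0.36, and the MYH7 share difference had a sign-flip p of 0.5 (exact). Adding MYH13 to the summed CPM gave a share difference of -2.44 points, leaving out MYH3 -2.62, adding both records without a symbol -1.85 and MYH7 with MYH1 alone -3.24. Shares per protein length were not run, as no protein lengths were used here. Depth did not limit the members, which had at least 1315 reads in each library.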
